A study of Homo sapiens with 4 samples.

Results

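The genes of DNA replication and nucleotide supply are those that load the replicative helicase onto chromosomes, open origins, copy DNA, make deoxynucleotides, turn on the S phase programme and provide histones for new chromatin. They were chosen as a list of 33 names, matched by current or older symbol, and 31 of them had a row among the 19555 genes of the table, each with 1 probe set and 3 of them under an older name. RFC4 and RRM1 matched no gene name. RNA came from U87MG, an established human malignant glioma line, hybridised as biotin-labelled target to Affymetrix Human Gene ST arrays. The L243P cells carried the L243P form of membrane alanyl-aminopeptidase (CD13/APN, encoded by ANPEP), which the labels call an inactive clone, and the wild-type cells carried the wild-type enzyme, both in constructs named with EGFP. Each genotype was 1 clone with n = 2 arrays, so that an effect of the genotype and one of the clone cannot be told apart. The replicates are described as 2 independent experiments and the growth of the clones as comparable. The sources used here name no time, passage or promoter of the constructs.

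Before S phase, the origin recognition complex with CDC6 and CDT1 loads the ring of MCM2 to MCM7 onto DNA, and geminin blocks a further round of loading. CDC45 and the GINS complex then join the ring to form the active helicase, while ribonucleotide reductase, thymidylate synthase and thymidine kinase supply deoxynucleotides. Many of these genes are induced by E2F factors once RB is phosphorylated by cyclin-dependent kinases, so in growing tumour cells they are widely used as proliferation markers. In RNA from a whole culture, a smaller share of cells in S phase and less transcript per cell cannot be told apart.

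The DNA replication and nucleotide supply genes were mostly slightly lower in the L243P clone, and none passed the test on its own. The median log2 change of L243P over wild type was -0.11 over the 31 genes, against -0.02 over all genes, with 23 below 0 and 8 above 0, where 55.2% of all genes and 51.2% of equally bright genes were below 0. The size of this shift depended on the wild-type array used. With wild-type replicate 2 left out the median was -0.022, against -0.021 over all genes. With wild-type replicate 1 left out it was -0.24, against -0.013. In the full fit the lowest change was -0.58 (SLBP) and the highest 0.27 (NPAT). With limma, 0 of 31 passed at an adjusted p under 0.05, where 0.967% of all genes (0.43% higher, 0.537% lower) and 1.81% of the genes at least as bright as the dimmest of the 31 (0.869% higher, 0.942% lower) did. Before adjustment 7 had a p under 0.05, all 7 lower in L243P (SLBP, MCM2, MCM3, MCM4, CDC45, TYMS and TK1), beside 6.76% lower and 6.75% higher among all genes, and 9.53% lower and 11.7% higher among equally bright ones. Limma's default prior gave 0 passing and 6 before adjustment. Over the alternatives that kept all 4 arrays, the count before adjustment ran from 3 (median centring, crossed block) to 7, with 0 passing in each. With the default prior and with either replicate block, 0 of all genes passed, so that 0 of the 31 was the only possible count there. These were among the brighter rows, with 89 as the lowest intensity on any array, at least as bright as 63.0% of the rows there. Among genes this bright the smallest change that passed was 0.53 on the log2 scale, and the standard errors of the 31 ran from 0.074 to 0.19.

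The 4 arrays correlated at 0.990 to 0.995 over all rows in log2 intensity, and their median intensities were 46 to 50. ANPEP was at 6439 and 7122 on the L243P arrays and at 8447 and 9103 on the wild-type arrays, from a probe set that does not tell the forms apart. Of the glial markers, CD44 (1889 to 2240) and VIM (6134 to 8297) were bright, NES was at 62 to 112, and S100B, SOX2 and AQP4 lay between 12 and 44, while no row was named GFAP. CD68, a lysosomal protein of macrophages, was at 1871 to 2569 and the other 5 immune markers at 8 to 54, the 4 endothelial markers at 15 to 37, the 5 epithelial markers at 16 to 178 and the 6 fibroblast or mural markers at 25 to 821. Both L243P arrays were above both wild-type arrays in NES, CD68, COL1A1, FAP, TEK and KRT18, and below in COL1A2, LUM, CDH5, KDR and CDH1. Among all genes 17.0% lay above and 20.9% below. With limma, 0 genes of each marker list passed, and the part of these cells in the results was not tested.

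In what follows, normalised intensities are given for replicate 1 and then replicate 2, and each change is the log2 ratio of L243P to wild type, with its standard error (SE) and 95% interval from limma. The starts of the 5 genes that differed most and had a RefSeq promoter are shown first, since they carry the largest differences of the list. Each line holds 150 bases before and 20 after the annotated start, 5′ to 3′ on the gene's strand, in GRCh38.p14 from RefSeq, with capitals for matches to E2F core letters (TTCGCGC or TTGGCGC or TTCCCGC or TTGCCGC) or to the CCAAT box on either strand.
SLBP: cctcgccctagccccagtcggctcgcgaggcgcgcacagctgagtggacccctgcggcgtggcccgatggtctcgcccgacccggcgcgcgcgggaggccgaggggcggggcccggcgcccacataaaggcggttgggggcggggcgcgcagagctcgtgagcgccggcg
MCM2: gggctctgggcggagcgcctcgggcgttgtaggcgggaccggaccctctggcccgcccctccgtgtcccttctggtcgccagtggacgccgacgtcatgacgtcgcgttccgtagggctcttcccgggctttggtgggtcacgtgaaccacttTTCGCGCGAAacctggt
TYMS: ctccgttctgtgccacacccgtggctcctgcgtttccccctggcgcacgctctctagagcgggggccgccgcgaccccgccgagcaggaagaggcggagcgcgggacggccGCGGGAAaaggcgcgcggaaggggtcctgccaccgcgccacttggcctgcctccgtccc
CDC45: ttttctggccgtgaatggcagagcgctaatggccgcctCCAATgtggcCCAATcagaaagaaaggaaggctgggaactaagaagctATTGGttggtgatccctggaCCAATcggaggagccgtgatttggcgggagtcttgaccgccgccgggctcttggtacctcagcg
TK1: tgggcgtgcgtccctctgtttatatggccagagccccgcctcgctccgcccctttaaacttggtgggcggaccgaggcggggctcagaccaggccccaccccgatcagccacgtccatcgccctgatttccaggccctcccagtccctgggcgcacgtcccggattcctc

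The windows lie at chr4:1712300-1712469 on the minus strand for SLBP, chr3:127598261-127598430 on the plus strand for MCM2, chr18:657503-657672 on the plus strand for TYMS, chr22:19479770-19479939 on the plus strand for CDC45 and chr17:78187185-78187354 on the minus strand for TK1. In MCM2, 2 overlapping E2F core matches begin at bases 4 and 7 of the transcript. In TYMS the match begins at base -39. CDC45 held 4 CCAAT boxes, which begin at bases -112, -102, -64 and -44, and no E2F core match. SLBP and TK1 held neither in this window nor in the full 300 bases of the table. Over those 300 bases, from 250 before to 50 after the start, 19 of the 27 measured genes with a promoter in the table held an E2F core match (70.4%, against 13.1% of 27305 promoters) and 17 held a CCAAT box (63.0%, against 35.7%). The mitotic CHR element TTTGAA was in 0 of 27 and in 15.4% of all promoters. MCM4, MCM5, CCNE2 and E2F8 had no entry. An E2F core match was in 9 of 13 promoters of genes whose L243P arrays both lay below both wild-type arrays and in 10 of the 14 others, and a CCAAT box in 5 of 13 and 12 of 14. These differences between the groups of promoters were not tested.

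MCM2, a subunit of the ring, was at 463 and 505 on the L243P arrays and at 620 and 640 on the wild-type arrays. Both L243P arrays were below both wild-type arrays, by more than the gap between replicates of either clone. The log2 change was -0.38 (SE 0.082, 95% interval -0.58 to -0.18, limma adjusted p = 0.143). MCM4 was at 619 and 647 with L243P, and at 724 and 773 with wild type. Its change was -0.24 (SE 0.078, interval -0.43 to -0.05, adjusted p = 0.307), again with no overlap of the groups. MCM3 was at 634 and 661 with L243P, and at 746 and 766 with wild type, a change of -0.22 (SE 0.074, interval -0.40 to -0.043, adjusted p = 0.314). MCM5, at 792 and 832 with L243P and 880 and 980 with wild type, also kept the groups apart (-0.19, adjusted p = 0.465). The other subunits of the ring did not. MCM6 was at 1026 and 983 with L243P and at 935 and 1207 with wild type, and MCM7 at 1259 and 1245 with L243P and at 1189 and 1437 with wild type. For both, the L243P arrays lay between the wild-type arrays, and the intervals of the change (-0.40 to 0.23 and -0.32 to 0.19) include the values measured for MCM3, MCM4 and MCM5.

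CDC45, which joins the ring when an origin fires, was at 247 and 232 on the L243P arrays and at 266 and 334 on the wild-type arrays. The groups did not overlap, and the wild-type arrays differed from each other by more than the L243P arrays did. The change was -0.32 (SE 0.13, interval -0.63 to -0.00068, adjusted p = 0.425). Of the GINS subunits, GINS1 and GINS3 were also lower on both L243P arrays (changes of -0.17 and -0.11), while GINS2 lay between the wild-type arrays (-0.072). MCM10, which helps to activate the helicase, overlapped, at 171 and 195 with L243P and at 169 and 193 with wild type (0.016). In all, 7 of the 11 helicase genes had both L243P arrays below both wild-type arrays and 10 of 11 a change below 0, with a median of -0.17. Both L243P arrays lay below in 20.9% of all genes and 25.5% of equally bright genes, and 55.2% and 51.2% had a change below 0.

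**Figure D1:**
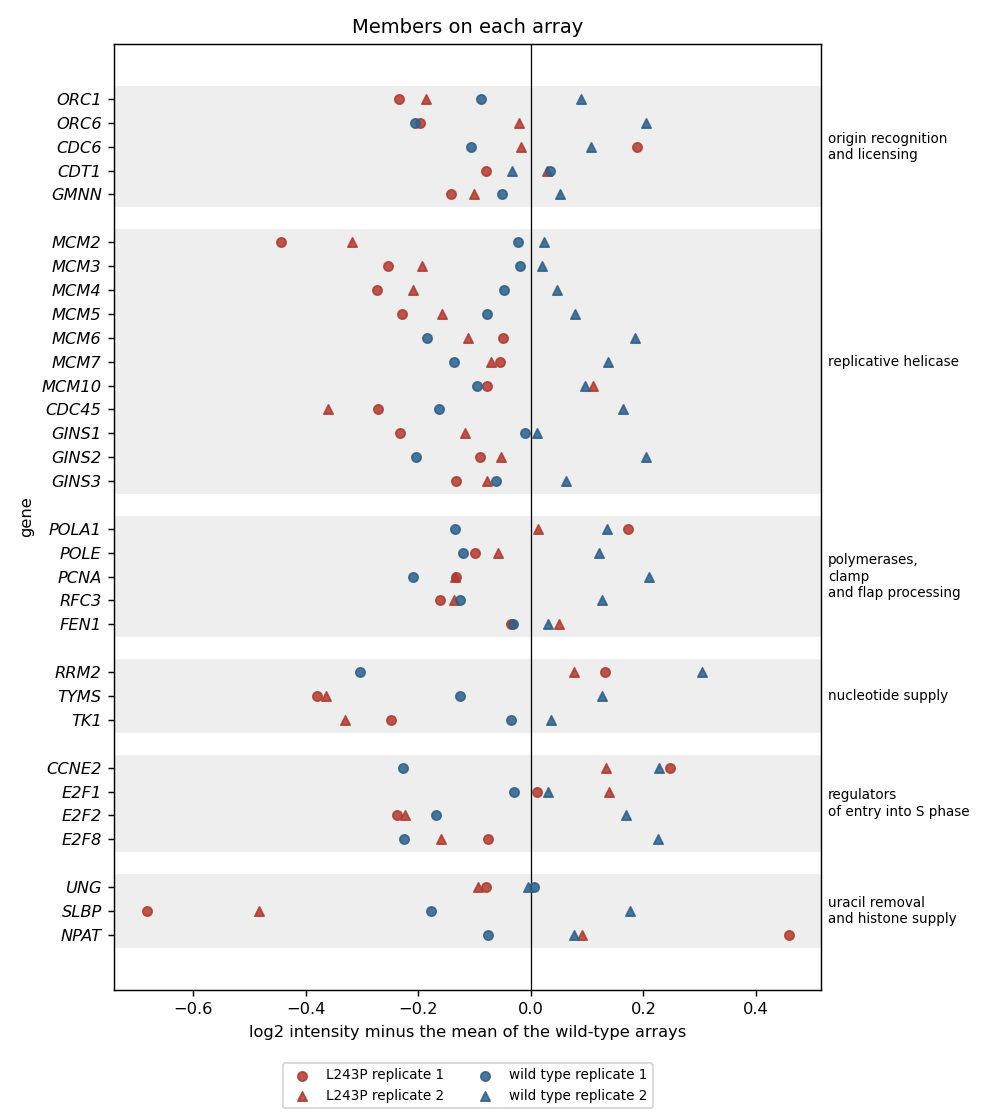
Log2 intensity of each gene on each array minus the mean of its wild-type arrays, grouped by role; red marks are L243P arrays and blue marks wild-type arrays, circles replicate 1 and triangles replicate 2. In MCM2 to MCM5, TYMS, TK1 and SLBP both red marks lie left of both blue ones, while in PCNA, RRM2, MCM6 and MCM7 they lie between 2 blue marks that are far apart.

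The 5 genes of origin recognition and licensing had a median change of -0.11, the same as that of all 31 genes. ORC1, the subunit of the origin recognition complex whose level follows the cell cycle, was at 179 and 185 with L243P and at 198 and 224 with wild type. The groups did not overlap, and the change was -0.21 (SE 0.10, interval -0.47 to 0.044, adjusted p = 0.519). GMNN, which encodes geminin, was also lower on both L243P arrays, at 139 and 143 against 148 and 159 with wild type (-0.12, adjusted p = 0.753). The loading factors CDC6 (635 and 551 with L243P, 518 and 600 with wild type) and CDT1 (247 and 266 with L243P, 267 and 255 with wild type) overlapped, with changes of 0.085 and -0.026. ORC6 was at 162 and 183 with L243P, between 161 and 214 with wild type.

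Genes of the polymerases and the clamp showed no common direction. PCNA, the sliding clamp that holds polymerases on DNA, was at 500 and 499 with L243P, and at 474 and 634 with wild type. The L243P arrays were nearly equal and lay between the wild-type arrays, near the lower one. The change was -0.13 (SE 0.14, interval -0.48 to 0.21, adjusted p = 0.834). RFC3, a subunit of the clamp loader, was lower on both L243P arrays (540 and 549, against 553 and 659 with wild type), although 549 and 553 are close together. POLE, the catalytic subunit of the leading-strand polymerase, had a change of -0.080, POLA1, the catalytic subunit of the polymerase that extends primers, 0.092, and FEN1, which trims flaps between Okazaki fragments, 0.0072. The L243P arrays of POLE lay between its wild-type arrays, and the groups overlapped in POLA1 and FEN1.

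The nucleotide supply genes split. TYMS, thymidylate synthase, which makes dTMP from dUMP, was at 1060 and 1072 on the L243P arrays and at 1264 and 1506 on the wild-type arrays. The L243P replicates were nearly equal, and the groups were separate. The change was -0.37 (SE 0.10, interval -0.62 to -0.13, adjusted p = 0.221). TK1, the cytosolic thymidine kinase of the salvage route, was at 656 and 620 with L243P, and at 760 and 799 with wild type. It too was separate, with a change of -0.29 (SE 0.077, interval -0.48 to -0.099, adjusted p = 0.22). RRM2, the S phase subunit of ribonucleotide reductase, was at 445 and 428 with L243P, and at 329 and 501 with wild type. On the log2 scale its wild-type arrays were the farthest apart of all 31 genes, the L243P arrays lay between them, and the interval of the change ran from -0.37 to 0.58.

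The regulators of entry into S phase were not lower as a group. CCNE2, a cyclin E that activates CDK2, was at 307 and 284 with L243P, and at 221 and 303 with wild type. Its change was 0.19 (SE 0.16, interval -0.20 to 0.58, adjusted p = 0.753), and the upper wild-type array lay between the L243P arrays. CCNE1, the other cyclin E, is in a comparison list and had a change of -0.00062. E2F1, an activating E2F, had a change of 0.074 with overlapping groups, and E2F8, a repressing one, a change of -0.12 with both L243P arrays between the wild-type arrays. E2F2, another activating E2F, was at 101 and 102 with L243P, and at 106 and 134 with wild type. The groups were separate, with 102 and 106 close together, and the change was -0.23 (SE 0.14, interval -0.58 to 0.12, adjusted p = 0.635).

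**Figure D2:**
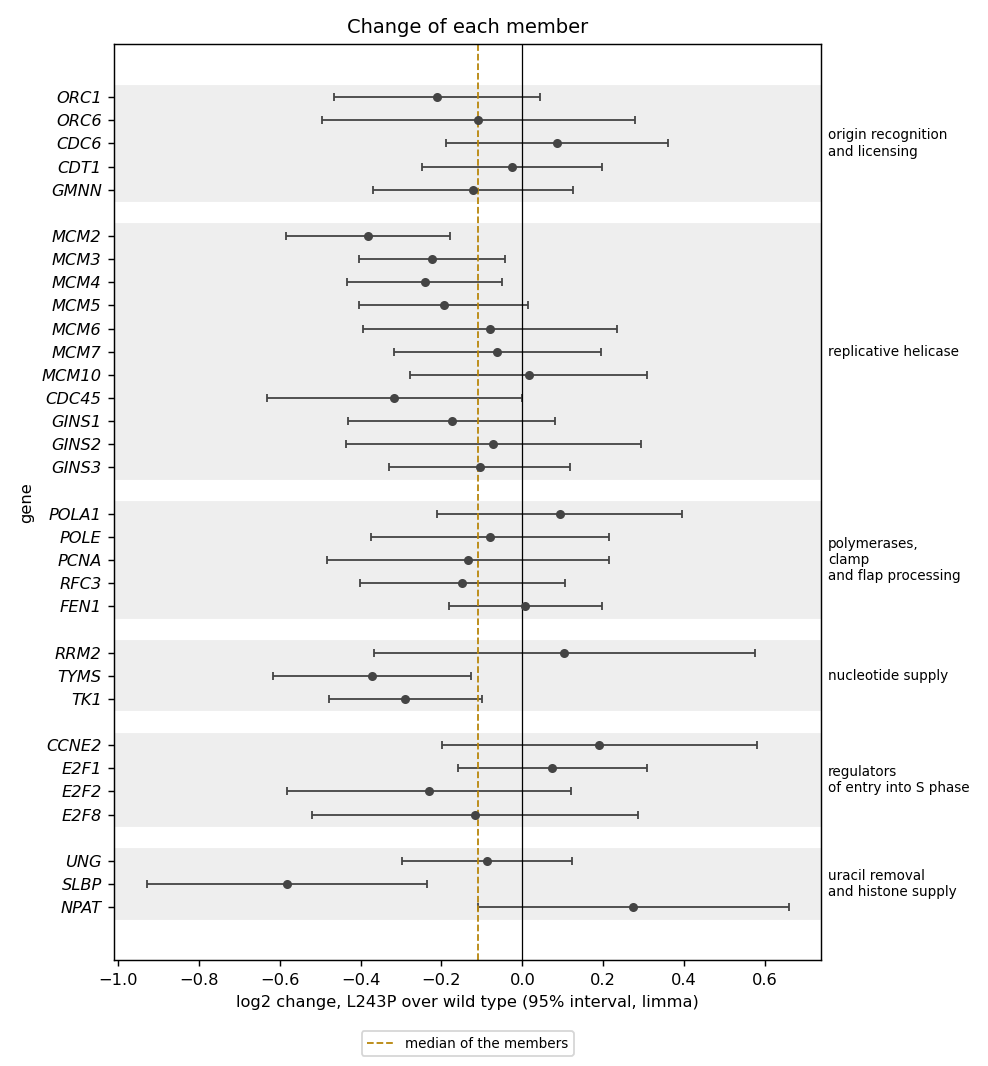
Log2 change of each gene, L243P over wild type, with the 95% interval of the limma fit (n = 2 arrays per clone); the dashed line is the median of the 31 genes, -0.11. The intervals of SLBP, MCM2, MCM3, MCM4, TYMS, TK1 and narrowly CDC45 lie below 0, and no gene passed after adjustment over all rows.

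SLBP had the largest change of the 31. Its product binds the stem-loop at the end of replication-dependent histone mRNAs, which carry no poly(A) tail, and is needed for their processing and translation. SLBP was at 276 and 317 on the L243P arrays and at 392 and 501 on the wild-type arrays. Both L243P arrays were below both wild-type arrays. The change was -0.58 (SE 0.14, interval -0.93 to -0.24, adjusted p = 0.181). Genes around it on chromosome 4 mostly had changes below 0 as well. Of the 20 genes on each side in RefSeq order, 36 of 40 had a change below 0, 5 passed as lower and 0 as higher, and their median was -0.41, so SLBP minus its neighbours was -0.17 on the log2 scale. The medians of the neighbours of the other 30 genes were between -0.090 and 0.086. The median of chromosome 4 was -0.14, and those of the other chromosomes lay between -0.069 and 0.038. The part of this shared shift in the value of SLBP was not tested. Without SLBP, the median of the other 30 genes was -0.11.

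**Figure D3:**
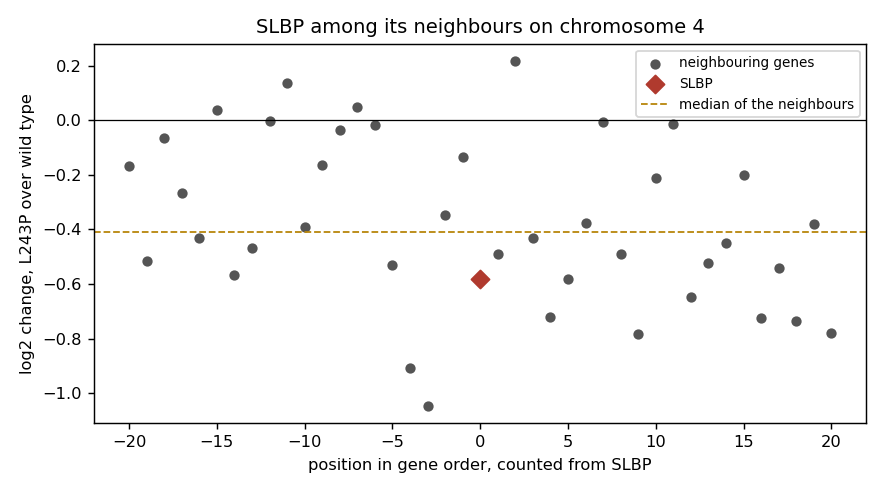
Log2 change, L243P over wild type, of SLBP (red) and of the 20 genes on each side of it on chromosome 4, in gene order. Most points are below 0, with a median of the neighbours of -0.41 against -0.58 for SLBP.

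NPAT, the coactivator of histone gene transcription that cyclin E-CDK2 phosphorylates, was the one gene with both L243P arrays above both wild-type arrays. It was at 129 and 100 with L243P, and at 89 and 99 with wild type. The nearest values, 100 and 99, were almost equal, and L243P replicate 1 stood well above the other 3 arrays. The change was 0.27 (SE 0.16, interval -0.11 to 0.66, adjusted p = 0.594). UNG, the uracil-DNA glycosylase, was at 226 and 224 with L243P and at 240 and 238 with wild type, a separate but small difference (-0.087). The 64 histone genes of the clusters in the table were listed with their values known. Of these, 48 had a change below 0 and 16 above 0, with a median of -0.18, where 55.2% of all genes were below 0. With limma, 7 passed as lower and 1 as higher, where 0.537% and 0.43% of all genes did. Against wild-type replicate 1 alone, the mean of the L243P arrays was lower in 37 of the 64 genes (median -0.028). Against wild-type replicate 2 alone, it was lower in 53 (median -0.34). Histone genes have near-identical copies, and their signals may be shared.

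Both L243P arrays were below both wild-type arrays in 15 of the 31 genes and above in 1. Among all genes 20.9% lay below and 17.0% above, and among equally bright genes 25.5% below and 25.4% above. Rounding to whole numbers makes ties common in dim rows, so the equally bright genes are the closer comparison. In 8 further genes both L243P arrays lay between the wild-type arrays (ORC6, MCM6, MCM7, GINS2, POLE, PCNA, RRM2 and E2F8), against 18.1% of equally bright genes.

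The wild-type arrays themselves differed in these genes. Wild-type replicate 2 was above wild-type replicate 1 in 29 of 31 genes, CDT1 and UNG being the exceptions, against 64.0% of equally bright genes and 47.2% of all genes. The median of this difference was 0.21 on the log2 scale and ran from -0.066 (CDT1) to 0.61 (RRM2). Between the L243P replicates it was 0.038. The wild-type gap was the wider one in 22 of 31 genes, beside 5376 of 8281 equally bright genes and 10946 of all 19555 genes. Set against wild-type replicate 1 alone, the mean of the L243P arrays was lower in 16 of 31 genes with a median of -0.022. Set against wild-type replicate 2 alone, it was lower in 28 of 31 with a median of -0.24. Of 8281 equally bright genes, 3720 were lower against replicate 1 (median 0.026) and 4712 against replicate 2 (median -0.035). Of all 19555 genes, 10623 were lower against replicate 1 (median -0.021) and 10399 against replicate 2 (median -0.013). The log2 gap between the higher L243P array and the lower wild-type array was widest in SLBP, MCM2, TYMS and TK1. The same gap was present in the mitotic genes listed for comparison, where replicate 2 was above replicate 1 in 19 of 19 genes with a median of 0.36. The part of this gap in the differences between the clones was not tested.

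**Figure D4:**
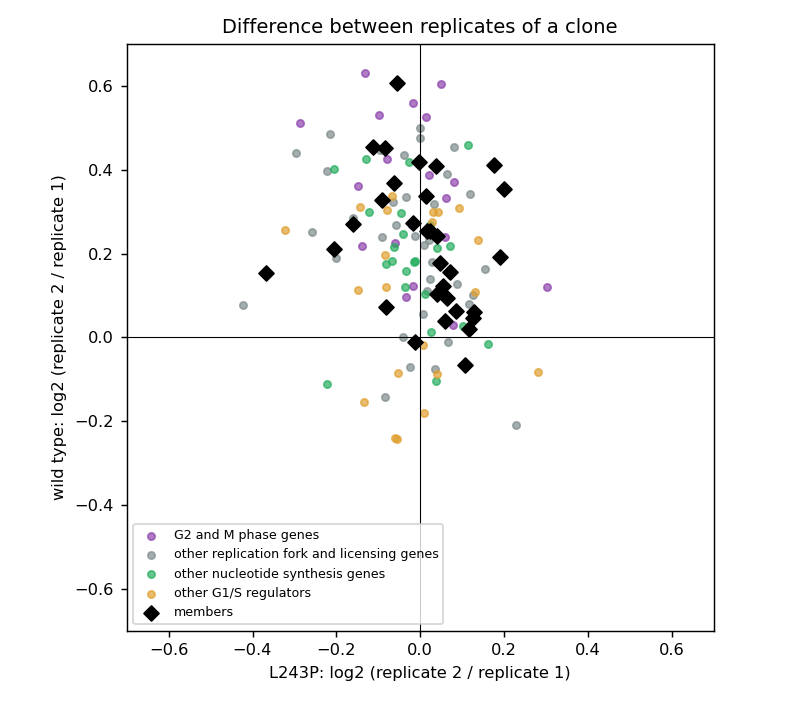
Each point is a gene; the horizontal axis is log2 of L243P replicate 2 over replicate 1 and the vertical axis log2 of wild-type replicate 2 over replicate 1. The 31 genes (black diamonds) spread around 0 horizontally (median 0.038) and lie mostly above 0 vertically (median 0.21), as do the G2 and M phase genes (purple, median 0.36).

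Other genes of the pathway were set beside the 31 in lists that do not overlap with them, and no difference between lists was tested. With limma, 0.967% of all genes and 1.81% of equally bright genes passed. Before adjustment, 13.5% and 21.3% had a p under 0.05. Of 38 other replication fork and licensing genes, 0 passed (4 before adjustment, 1 higher and 3 lower), and the median was -0.029. RFC1, the large clamp loader subunit, had the largest change there, at 183 and 153 with L243P and at 285 and 339 with wild type (-0.89, SE 0.13, limma adjusted p = 0.062). RFC1 is also on chromosome 4, where the median of its neighbours was -0.46. POLE3, a small subunit of the leading-strand polymerase, and POLA2, the regulatory subunit beside POLA1, had changes of -0.32 and -0.27, and DSCC1, of an alternative clamp loader, a change of 0.32. Of 23 other nucleotide synthesis genes, 0 passed (5 before adjustment, 2 higher and 3 lower), with a median of 0.088. DCK, deoxycytidine kinase, had a change of -0.68 and RRM2B, the p53-induced reductase subunit, one of -0.53 (adjusted p = 0.174 and 0.0861), whereas TK2, the mitochondrial thymidine kinase, and SHMT1, a serine hydroxymethyltransferase, had changes of 0.44 and 0.38.

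Upstream of these genes, 1 of 21 other regulators of the G1/S transition passed. CCND1, cyclin D1, which with CDK4 or CDK6 starts the phosphorylation of RB, was at 725 and 729 with L243P, and at 1743 and 1537 with wild type. It fell by 1.17 on the log2 scale (SE 0.086, limma adjusted p = 0.0112), and the median of its 40 neighbours was 0.0015. With limma's default prior, with the replicate numbers as a block or with any 1 array left out, 0 genes of the whole table passed, CCND1 and the histone and chromosome 4 genes above included. CDK6, the cell cycle inhibitor CDKN1A and the phosphatase CDC25A had changes of -0.62, -0.47 and -0.46 without passing. In the other direction, TFDP1, the dimerization partner of E2F factors, and the RB relatives RBL1 and RBL2 had changes of 0.36, 0.27 and 0.24. None passed, and each had both L243P arrays above both wild-type arrays. The medians of their neighbours were 0.11, 0.043 and 0.051. Both L243P arrays lay above in 4 of the 21 genes and below in 7, beside 17.0% and 20.9% of all genes and 25.4% and 25.5% of equally bright ones. Before adjustment 9 of the 21 genes had a p under 0.05, 3 higher and 6 lower. Among all genes 6.75% were higher and 6.76% lower, and among equally bright ones 11.7% and 9.53%. The median of the 21 genes was -0.065. Of 19 G2 and M phase genes 0 passed (2 before adjustment, both higher), with a median of 0.033. CENPF and ASPM, both with roles in mitosis, had the largest changes there, 0.63 and 0.47. The topoisomerase TOP2A and the spindle protein NUSAP1 had changes of 0.35 and 0.28. The medians of the neighbours were 0.24 for CENPF, 0.0054 for ASPM, -0.049 for TOP2A and -0.060 for NUSAP1. The median of each comparison list changed sign with the wild-type array used. Against wild-type replicate 1 alone and then replicate 2 alone, it was 0.22 and -0.14 for the G2 and M phase genes. It was 0.080 and -0.14 for the other fork and licensing genes and 0.20 and -0.0043 for the other nucleotide synthesis genes. For the other G1/S regulators it was 0.013 and -0.079.

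**Figure D5:**
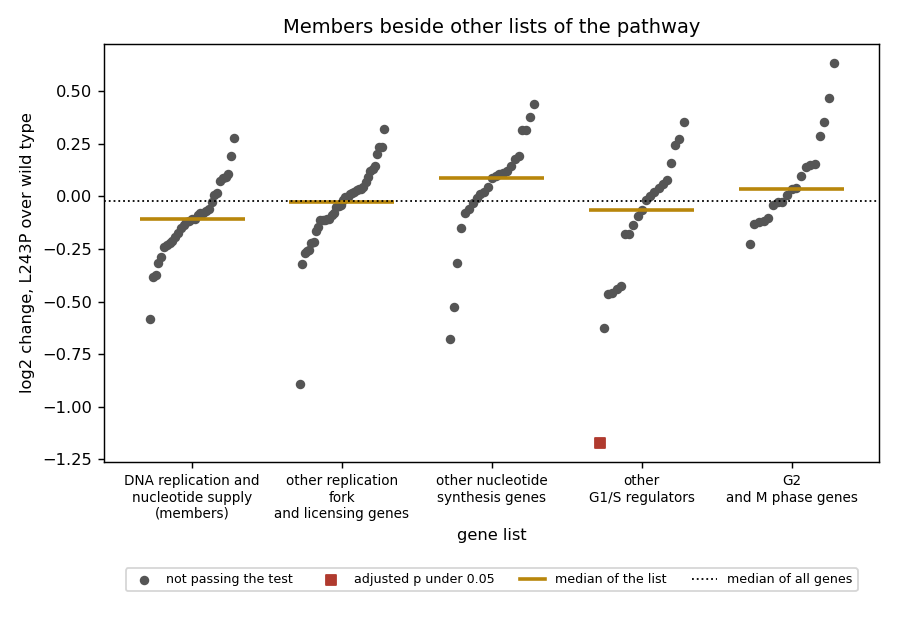
Log2 change of each gene, L243P over wild type, in 5 lists, sorted within each list, with the median of the list as a bar and the median of all genes as a dotted line. The replication and nucleotide supply genes have a median of -0.11 and no called gene, and CCND1 is the one called gene (square) in the other 4 lists.

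In the authors' deposited table, the fold changes of the 31 genes lay between -1.5 (SLBP) and 1.2 (NPAT), where a negative sign stands for lower in the mutant. In the authors' deposited table the lowest proportion of false positives among them was 0.428, for SLBP, above the 0.15 that the authors used. The authors' summary of changed genes holds 223 genes, beside 19555 genes tested here, and 0 of the 31 were in it.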

How the data were processed

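The authors' deposited table holds normalized intensities on a linear scale, rounded to whole numbers, for 29085 probe sets. Per the authors' description deposited with it, CEL files were background corrected, quantile normalized and summarised by RMA, which the submitters' processing notes also name, in Rosetta Resolver. The sources used here name no version and no genome build. The fold change and the proportion of false positives deposited by the authors are treated as scores, and their deposited p-values were not used. The deposited series matrix holds the same values.

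Names were brought to current symbols with a RefSeq gene table (GRCh38.p14), which also gave the gene order. It holds 18149 of the 19555 genes. The brightest probe set stood for a gene. With 7978 unnamed probe sets, 27533 rows were fitted as log2 values with limma (version 3.58.1, R 4.3.3; trend = TRUE, robust = TRUE), no filter or further scaling, and Benjamini-Hochberg adjustment over all rows at 0.05. This prior was chosen knowing that limma's default prior makes fewer calls on these rounded values (0 against 189 over all genes). Both were tested on simulated data with independent noise in each row, which hold no shift between replicates that is shared by many genes. The 31 genes, the comparison lists and this fit were chosen with earlier results of these data known. All 31 are named, with full values for the 10 largest changes. The p-values reflect how far repeat experiments on the same clone differ. Arrays have no counts, and their number limits the precision.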

Additional observations from a re-analysis of the deposited data

How the results depend on the processing

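Of the 31 genes, 0 passed in either direction under all 12 alternatives fitted. The smallest adjusted p among them was 0.143 in the fit reported, 0.0867 after median centring and 0.0659 without the dimmer 50% of the rows. The median of the 31 genes was -0.078 after median centring (0.0099 over all genes), -0.10 with a pseudocount of 16 and -0.092 after the neighbours' median was subtracted, an alternative chosen after seeing the data. Leaving out 1 array in turn, it ran from -0.24 (without wild-type replicate 1) to -0.022 (without wild-type replicate 2). The medians over all genes in the same fits were -0.013 and -0.021. Over all genes, 189 passed in the fit reported (84 higher, 105 lower), 505 after median centring (282 higher, 223 lower), 440 without the dimmer 50% (257 higher, 183 lower), and 0 with the default prior, with the replicate block and without any 1 array (0 to 0). The causes were not tested. The labels do not say that equal replicate numbers share an experiment, and their deviations correlated at -0.23 across 19555 genes. With the numbers crossed as the replicate block, chosen after seeing the data, 0 genes passed. The number of the 31 with an unadjusted p under 0.05 was 7 in the fit reported, 5 with the replicate block, 3 with crossed numbers and after median centring, and 4 to 9 with 1 array left out. Of the 12 alternatives, 6 leave every log2 change as it was by construction. Of the 186 single values under the other 6, 19, in 14 genes, turned direction, and 18 of these were among the 124 values with 1 array left out. After median centring CDT1 was at 0.0044. Leaving out 1 array gave changes of -0.31 to 0.097 for ORC6, -0.021 to 0.19 for CDC6, -0.079 to 0.028 for CDT1, -0.27 to 0.10 for MCM6, -0.20 to 0.074 for MCM7, -0.080 to 0.11 for MCM10, -0.28 to 0.13 for GINS2, -0.043 to 0.23 for POLA1, -0.20 to 0.041 for POLE, -0.34 to 0.076 for PCNA, -0.035 to 0.050 for FEN1, -0.20 to 0.41 for RRM2, -0.037 to 0.42 for CCNE2 and -0.34 to 0.11 for E2F8.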

Other observations

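1 probe set without a gene name is described in the table as a replication factor C subunit, and it was left out of the counts above. Its description gives the size by which the product of RFC4 is known, and RFC1, RFC2, RFC3 and RFC5 have rows of their own, but whether it measures RFC4 was not tested. It was at 453 and 415 with L243P and at 372 and 510 with wild type, a log2 change of -0.0066 (limma adjusted p = 1.0).

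Of the genes in the comparison lists, 6 lie on chromosome 4. CCNA2, which encodes cyclin A, was at 319 and 326 with L243P and at 391 and 481 with wild type (-0.43, adjusted p = 0.224), and CENPE, a mitotic kinesin, had a change of -0.044. PAICS and PPAT, both enzymes of purine synthesis, differed in direction. PAICS was at 695 and 663 with L243P and at 795 and 902 with wild type (-0.32, adjusted p = 0.239), and PPAT was at 146 and 158 with L243P and at 104 and 143 with wild type (0.32, adjusted p = 0.565). The others, RFC1 and DCK, are given in the report. The medians of the neighbours were -0.13 for CCNA2, -0.12 for CENPE, -0.084 for PAICS, -0.10 for PPAT, -0.11 for DCK and -0.46 for RFC1.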
